A study of Mus musculus with 6 samples.

Results

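Adipokines are hormones and other signaling proteins secreted by fat cells, and the comparison described here follows 9 of their genes, Lep (leptin), Adipoq (adiponectin), Retn (resistin), Rbp4 (retinol binding protein 4), Nampt (visfatin), Apln (apelin), Angptl4 (angiopoietin-like 4), Cfd (adipsin) and Serpina12 (vaspin), through inguinal fat of mice that gained much or little weight on the same diet. The genes were taken as a list, and every probe to which the annotation gives 1 of them as its single gene symbol was used. Of the 9 genes, 7 had such a probe, 1 each, which makes 7 probes of the 33012 on the array, and 5 of the 7 were measured on each of the 6 arrays. Adipoq and Cfd had no probe under a single symbol and were not analysed here.

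The study asked what differs in the fat of genetically identical animals that become obese to different degrees. High gainers and low gainers were male C57BL/6J mice, housed singly by the start of a diet rich in saturated fat (D12331), which they were given for 4 weeks from 8 weeks of age, so that strain, sex, diet and age were shared and the groups were defined by the weight gained. RNA of inguinal fat, a subcutaneous depot, was combined from 8 mice into 1 pool per group, which was put on 3 one-color arrays. The arrays of a pool repeat 1 RNA preparation, so n counts arrays, and the p-values measure the technical spread between arrays of these pools and not the variation between mice.

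Leptin is secreted by fat cells in proportion to the fat they store and acts through its receptor in the hypothalamus to lower food intake and raise energy use. Adiponectin increases insulin sensitivity and usually declines in obesity, whereas resistin and retinol binding protein 4 have been linked to insulin resistance in mice. Angiopoietin-like 4 inhibits lipoprotein lipase, the enzyme that releases fatty acids from circulating triglyceride, and it is induced by fasting and by fatty acids. Nampt makes the precursor of NAD inside cells and is also released, apelin acts on the vessel wall through a G protein-coupled receptor, vaspin is a serine protease inhibitor, and adipsin is the protease that starts the alternative complement pathway.

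Transcription of Lep in fat cells is driven in part by C/EBPα, a factor of the CCAAT/enhancer-binding family that binds short palindromes close to the start of the gene. The 250 bases ahead of the annotated start of Lep, chr6:29059971-29060220 on the plus strand, and of Retn, chr8:3655520-3655769 on the plus strand, are shown from the RefSeq promoters of GRCm38.p6 because leptin is the member that was called between the pools and resistin is the other hormone whose arrays all lay higher in high gainers with an interval above 0. Capitals mark a match to the C/EBP form TTGCNNAA on either strand.
Lep: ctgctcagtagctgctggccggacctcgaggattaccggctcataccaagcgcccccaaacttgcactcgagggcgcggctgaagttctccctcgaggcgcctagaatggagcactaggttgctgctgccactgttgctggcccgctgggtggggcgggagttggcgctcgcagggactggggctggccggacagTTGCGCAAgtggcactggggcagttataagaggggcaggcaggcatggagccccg
Retn: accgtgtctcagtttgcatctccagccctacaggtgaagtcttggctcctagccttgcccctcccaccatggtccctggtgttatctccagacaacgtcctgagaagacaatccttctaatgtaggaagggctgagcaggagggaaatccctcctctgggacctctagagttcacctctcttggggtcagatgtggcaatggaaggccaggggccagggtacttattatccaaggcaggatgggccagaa
Lep held the full palindrome TTGCGCAA at positions -55 to -48, counted back from -1 at the last base before the start, and a GC box (GGGCGG) that begins at position -98. The Retn window held no match to the C/EBP form. Of 32851 promoter windows of this length, 9.56% held the C/EBP form on either strand and 0.164% the palindrome, which is contained in the C/EBP form, while 32.7% held a GC box on either strand. A window was listed for 8 of the 9 genes, all but Angptl4, with 2 windows for Rbp4. Other matches to the C/EBP form were TTGCAAAA at position -90 of Serpina12 and TTATGCAA at position -128 of the window at the inner start of Rbp4. A match is a description of letters and not a measured binding site.

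The arrays held a value for 18018 to 20605 probes, and 15821 had values throughout and were tested. Log2 signals correlated at r = 0.988 to 0.994 across probes between arrays of 1 pool and at 0.972 to 0.980 between pools. A call required an adjusted p below 0.01 together with a difference of 1.5-fold or more, and the adjusted p throughout is from limma with Benjamini-Hochberg adjustment over all tested probes. By this rule 396 probes (2.50%) were higher and 632 (3.99%) lower in high gainers, and the median log2 ratio of all tested probes was 0.027. These are the shares against which the counts of adipokines are to be read.

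Leptin was the adipokine with the largest difference between the pools and the only 1 of the 5 tested that was called, beside 2.50% of all probes called higher. The Lep probe gave normalized signal intensities, in arbitrary units, of 859583, 1011527 and 825649 on the arrays of high gainers and 471078, 547516 and 495598 on those of low gainers. The lowest array of high gainers lay 0.59 log2 units above the highest array of low gainers, so the pools did not overlap. The mean was 898920 ± 98986 (SD, n = 3 arrays) against 504731 ± 39029 (SD, n = 3), a 1.78-fold difference with a 95% interval of 1.47 to 2.15 (log2 0.83, SE 0.12, adjusted p = 0.0035). A higher log2 ratio was found for 279 of the 15821 probes (1.76%). The call rested on most of the arrays. With 1 array left out the log2 ratio stayed between 0.74 and 0.89, but the adjusted p was 0.0173 without high gainers replicate 1, 0.0131 without high gainers replicate 2, 0.0129 without low gainers replicate 1 and 0.0175 without low gainers replicate 3, above the threshold.

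Lep was also among the brightest probes, and its place in the order of signals differed between the pools. Ranked among the probes with a value on the same array, with 1 as the brightest, Lep stood at 253, 190 and 271 on the arrays of high gainers and at 522, 450 and 500 on those of low gainers. At most 1.5% of probes were brighter than Lep on the former and at least 2.43% on the latter. The authors' normalization gave the arrays nearly the same value at each rank, with differences of at most 0.236% at any of the first 600 ranks, so that the signal and the rank of such a probe carry the same information. A rank orders probes and does not give the abundance of 1 mRNA against another.

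**Figure D1:**
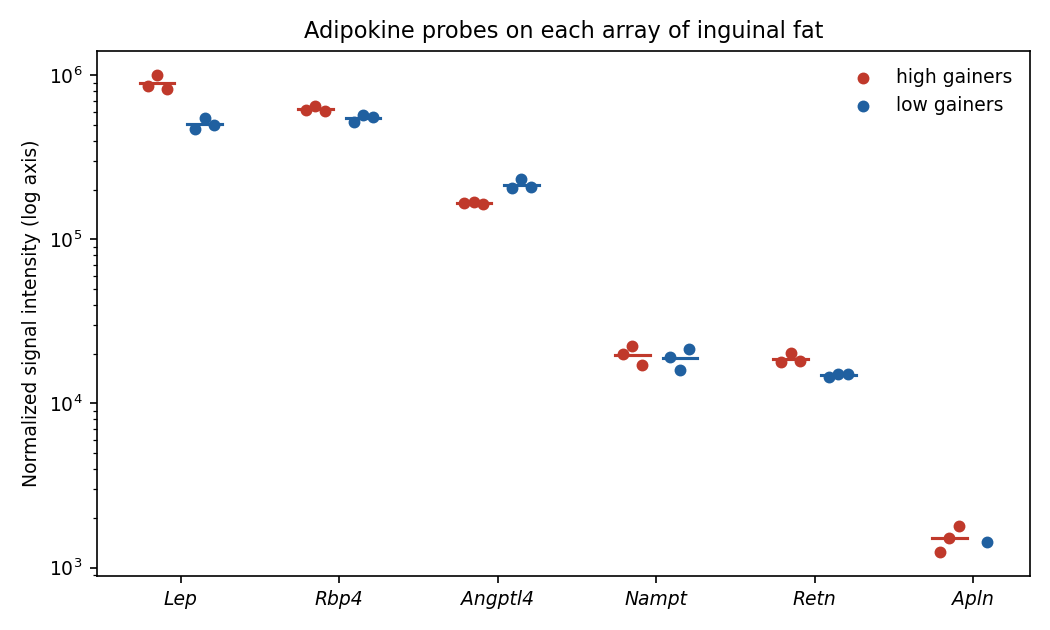
Normalized signal intensity (log axis) of the 6 adipokine probes with any value, on each array of high gainers (red) and low gainers (blue); each point is 1 array and the line is the mean over the 3 arrays of a pool. Lep separates the pools most widely among the probes tested, Angptl4 is lower on every array of high gainers, Nampt overlaps, and Apln has a value on only 1 array of low gainers.

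Rbp4, the carrier of retinol in blood, was the adipokine probe next to Lep in the order of signals. Its signals were 617827, 652475 and 609198 in high gainers and 517629, 573202 and 559999 in low gainers. All 3 arrays of high gainers were above those of low gainers, but by little. The means of 626500 ± 22905 (SD, n = 3) and 550277 ± 29034 (SD, n = 3) gave a log2 ratio of 0.19 (SE 0.093, 95% interval -0.029 to 0.40, adjusted p = 0.220), which did not pass the test. The ranks of Rbp4 were 397, 374 and 404 in high gainers and 480, 428 and 439 in low gainers. On every array of high gainers Lep therefore ranked above Rbp4, and on every array of low gainers it ranked below.

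Retn gave signals of 17797, 20287 and 18182 in high gainers and 14440, 15153 and 15076 in low gainers. The arrays did not overlap, and high gainers were the higher. The means were 18755 ± 1340 (SD, n = 3) and 14890 ± 391 (SD, n = 3), a 1.26-fold difference (log2 0.33, SE 0.096, 95% interval 0.11 to 0.55, adjusted p = 0.055) that met neither the p nor the fold threshold. Its ranks ran from 6874 to 7357 in high gainers and from 7947 to 8139 in low gainers, in the middle of the order of signals.

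Angptl4 was the adipokine that went in the opposite direction. Signals of 166504, 168942 and 164235 in high gainers stood against 204807, 232361 and 208907 in low gainers, and every array of high gainers was the lower. The high-gainer arrays were nearly identical, with a mean of 166560 ± 2354 (SD, n = 3), and the low-gainer mean was 215358 ± 14867 (SD, n = 3). The signal was 1.29-fold lower in high gainers (log2 -0.37, SE 0.094, 95% interval -0.59 to -0.15, adjusted p = 0.0369), which did not reach the thresholds for a call, and 3.99% of all probes were called lower. Its ranks were 1498, 1480 and 1518 in high gainers and 1240, 1104 and 1216 in low gainers.

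Nampt did not separate the pools. Its signals were 20092, 22290 and 17205 in high gainers and 19255, 15928 and 21402 in low gainers, and the ranges crossed. The log2 ratio was 0.077 (SE 0.15, 95% interval -0.27 to 0.42, adjusted p = 0.774), so that these arrays leave room for a difference of up to 1.34-fold in favor of high gainers. The coefficients of variation, 12.8% and 14.6%, were the largest among the 5 tested adipokines. The sign of the ratio was not stable: it was -0.010 when high gainers replicate 2 was left out and -0.040 when low gainers replicate 2 was.

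Apln was near the lower end of measurable signal and was not tested. It was listed at 1247, 1505 and 1798 on the arrays of high gainers, while among low gainers only replicate 3 had a value, 1422, which lies within the range of high gainers. From 88.8 to 91.1% of the probes with a value were brighter. The probe of Serpina12 was blank on all 6 arrays, and no level is given for it.

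**Figure D2:**
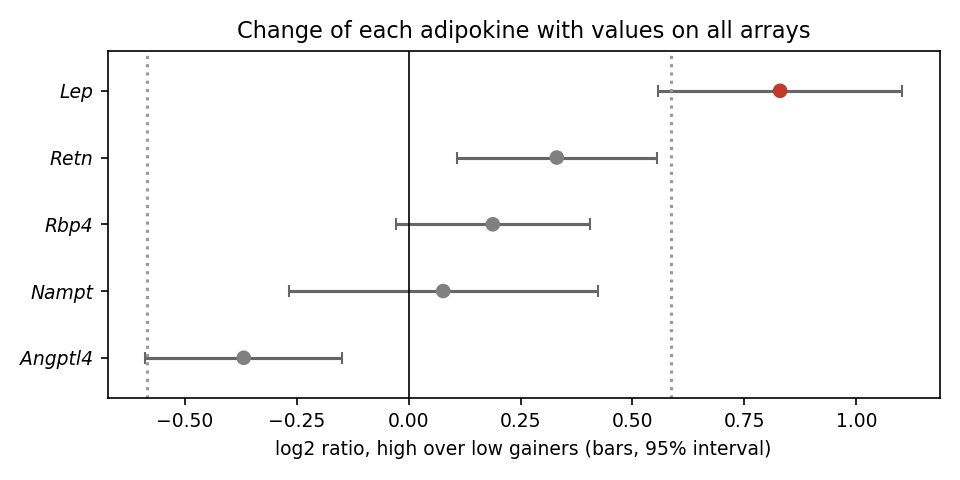
Log2 ratio of high over low gainers for the 5 adipokine probes with values on all 6 arrays; points are estimates, bars are 95% intervals from limma and dotted lines mark a 1.5-fold difference in either direction. Lep (red), at 0.83, is the called gene, and the estimates of Retn, Rbp4, Nampt and Angptl4 (gray) lie between -0.37 and 0.33.

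The arrays of the pools did not overlap for 4 of the 5 tested adipokines, Lep, Rbp4 and Retn higher and Angptl4 lower. Pools whose arrays do not overlap were common here, with 36.6% of all tested probes (3212 higher and 2585 lower), and the arrays of a pool repeat 1 preparation. The separation of Rbp4, Retn and Angptl4 is therefore reported as a description of these arrays. Whole tissue was hybridized, and fewer cells of a type cannot be told apart from less RNA per cell.

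Leptin was then set against each of the other adipokines on the same array, which tests whether the difference between the pools was unequal for the pair. The log2 signal of Lep minus that of each of the 15820 other probes was fitted, with p-values adjusted over all of them, and 4 of these comparisons concern adipokines. The ratio of Lep was the higher in all 4, and 3 were called, beside 74.8% of all probes for which Lep was called the higher ratio. Every such difference contains the same Lep values, and the count for adipokines says nothing particular to them. The spread that limma shares between probes is also drawn from rows with the same Lep values. The p-values and intervals of the 4 pairs are therefore not those of independent comparisons and depend on the model. For Lep against Angptl4 the adjusted p ran from 4.31e-13, in limma with an intensity trend, to 0.0042 over the 20 alternatives.

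The quotient of Lep over Angptl4, scaled to 1 for the mean of low gainers, was 2.20, 2.56 and 2.15 on the arrays of high gainers and 0.982, 1.01 and 1.01 on those of low gainers. The high-over-low ratios of the pair differed by 2.29-fold (log2 1.20, SE 0.16, 95% interval 0.85 to 1.55, adjusted p = 3.49e-05), the widest of the 4 pairs. Their protein products act on different steps of fat storage, leptin on appetite and Angptl4 on the uptake of fatty acids.

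For Lep over Nampt the scaled quotient was 1.59, 1.69 and 1.78 in high gainers and 0.909, 1.28 and 0.861 in low gainers, with low gainers replicate 2 nearest to the other pool. The difference of log2 ratios was 0.75 (SE 0.18, 95% interval 0.36 to 1.15, adjusted p = 0.00172). The call was lost without low gainers replicate 3 (adjusted p = 0.0138) and with the test of the study's methods in place of limma (adjusted p = 0.0256).

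For Lep over Rbp4 the quotients were 1.52, 1.69 and 1.48 against 0.993, 1.04 and 0.966, with no overlap. The difference of log2 ratios was 0.64 (SE 0.16, 95% interval 0.30 to 0.99, adjusted p = 0.00207), or 1.56-fold. The call was lost without low gainers replicate 3 (adjusted p = 0.0182). It was also lost when high gainers replicate 2 was left out, at a difference of 0.58, which is under the fold threshold.

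For Lep over Retn the quotients were 1.43, 1.47 and 1.34 against 0.964, 1.07 and 0.971. The difference of log2 ratios was 0.50 (SE 0.16, 95% interval 0.16 to 0.84, adjusted p = 0.00954), and at 1.41-fold it stayed under the fold threshold and was not called. Among the 4 pairs this was the smallest difference, and its interval also holds differences well above the threshold.

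**Figure D3:**
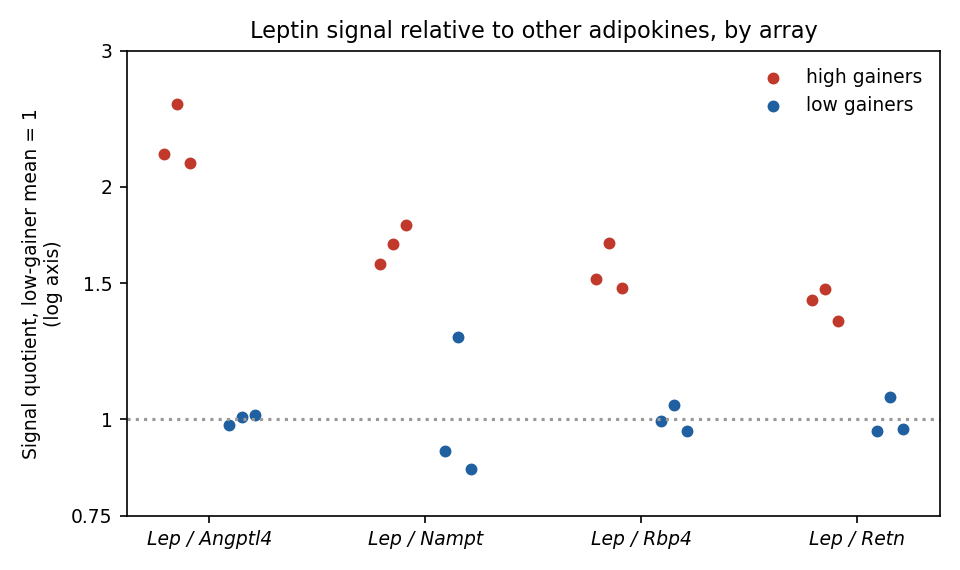
Lep signal divided by the signal of Angptl4, Nampt, Rbp4 or Retn on the same array, scaled so that the mean of low gainers is 1 (log axis); each point is 1 array of high gainers (red) or low gainers (blue). The quotients of high gainers, from 1.34 to 2.56, lie above every quotient of low gainers within each pair, and only low gainers replicate 2, at 1.28 for Nampt, stands off from its pool.

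The genes whose pattern over the 6 arrays was most like that of Lep were Csnk2a1, Thbs2, Efemp1, Plat and Lims2, with root mean square differences from Lep of 0.086 to 0.104 log2 units after each probe was centered on its own mean, against a median of 0.446 for all tested probes. Csnk2a1 encodes the catalytic subunit of casein kinase 2, Thbs2 and Efemp1 are proteins of the extracellular matrix, Plat is tissue plasminogen activator and Lims2 is an adaptor at cell adhesions. Their ratios ran from 1.60-fold for Lims2 to 1.70-fold for Csnk2a1, and all 5 were called. They were chosen for their likeness to a gene that differed, so these ratios are a description. With the mean over all its probes Csnk2a1 had a log2 ratio of 0.48 in place of 0.76 and was not called (adjusted p = 0.0231). When each array was left out in turn, Efemp1 kept its call in 0 of 6 fits, Csnk2a1, Thbs2 and Lims2 in 1 of 6 and Plat in 3 of 6.

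Receptors and signal transducers of adipokines were described from a list of 22 genes, of which 15 were tested, 2 were called higher (13.3%, beside 2.50% of all probes) and 0 lower, with a median log2 ratio of 0.019 beside 0.027 for all probes. Gpr1, a receptor for the adipokine chemerin, gave 25667, 22632 and 24492 in high gainers and 12649, 11576 and 11783 in low gainers, a 2.02-fold difference (log2 1.01, SE 0.097, adjusted p = 0.000667). Its pools were well apart, and each of the 6 fits that leave out an array called it. Itgb5, an integrin subunit, gave 28613, 28440 and 35071 against 14166, 19487 and 15103 (log2 0.93, adjusted p = 0.00695) and was called by 1 of those 6 fits, the one without low gainers replicate 2.

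The leptin receptor gene Lepr was measured poorly. Its probe was blank on all 3 arrays of high gainers and was listed at 3385 and 3628 on low gainers replicates 1 and 3. Of the tested genes downstream of the receptor none was called. Socs3, a feedback inhibitor of leptin signaling, had the largest difference, a log2 ratio of -0.41 (adjusted p = 0.0659). Stat3 had a log2 ratio of -0.0095, Sh2b1 of -0.20 and Ptpn1 of -0.24 (adjusted p = 0.969, 0.278 and 0.263). The adiponectin receptors Adipor1 and Adipor2 had log2 ratios of -0.096 and 0.019 (adjusted p = 0.626 and 0.929). Stra6, the receptor for retinol binding protein, had a value on 1 array only, 2614 on low gainers replicate 1.

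Other secreted factors of adipose tissue formed a list of 50 genes, of which 31 were tested, with a median log2 ratio of 0.37. Of these, 5 were called higher (16.1%, beside 2.50% of all probes) and 1 lower (beside 3.99% of all probes). Sfrp5 and Bmp3 were among genes that the study itself selected on these arrays, so their part in the count is not independent evidence. Sfrp5, a secreted inhibitor of Wnt signaling, had the largest log2 ratio of the list at 1.99, and Bmp3, of the bone morphogenetic protein family, had 0.86 (adjusted p = 0.000174 and 0.002). The other genes called higher were Saa3, an acute-phase protein, at 1.12, Fgf1, a growth factor needed for the remodeling of fat on a high-fat diet, at 1.02, and Azgp1, a lipid-mobilizing glycoprotein, at 0.78 (adjusted p = 0.00125, 0.00394 and 0.00216). Lcn2, lipocalin 2, was lower, with 3790, 4891 and 4284 in high gainers and 10029, 11077 and 10716 in low gainers (log2 -1.30, adjusted p = 0.00056). Sfrp5, Saa3, Azgp1 and Lcn2 have dim probes, with means in the lowest 33.3% of those tested. Sfrp5, Saa3 and Lcn2 kept their calls in 6 of 6 fits that each lacked 1 array, Azgp1 in 4, Bmp3 in 3 and Fgf1 in 2.

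The protein families of the single adipokines are small lists, in which 1 gene moves the share called by a large step. In the C1q/TNF family, the relatives of adiponectin, 2 of 8 tested genes were called higher (25%, beside 2.50% of all probes), C1qtnf9 at a log2 ratio of 0.74 and C1qtnf1, with a dim probe, at 0.66 (adjusted p = 0.00571 and 0.00595), and neither kept its call in any of the 6 fits that lack an array. Of 9 tested genes for the folding and secretion of adiponectin 0 were called, and their log2 ratios ran from -0.22 for the chaperone Canx to 0.42 for the lysyl hydroxylase Plod3. In the resistin family Retnla had signals of 1448404, 1348150 and 1406697 against 1107476, 1136282 and 1110767 (log2 0.32, adjusted p = 0.0438) and Retnlg a log2 ratio of 0.36 (adjusted p = 0.0748), neither of which was called. These ratios stand beside the 0.33 of Retn, and cross-hybridization between the related sequences was not tested.

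Among 5 tested genes of angiopoietin-like proteins and lipoprotein lipase, 1 was called higher (20%, beside 2.50% of all probes). This was Vldlr, a receptor that takes up triglyceride-rich particles, with 80778, 89103 and 82938 against 56444, 51114 and 55328 (log2 0.63, adjusted p = 0.00461), and 0 of 6 fits that lack an array called it. Lpl itself was not analysed here. Of 7 tested genes of retinol transport and storage, 1 was called higher (14.3%, beside 2.50% of all probes). This was Ttr, transthyretin, the plasma partner of retinol binding protein. It gave 88800, 88118 and 91319 in high gainers and 53300, 60216 and 56674 in low gainers, 1.58-fold higher (log2 0.66, SE 0.092, adjusted p = 0.00353), and 1 of the 6 fits that lack an array called it, the one without low gainers replicate 2. The Rbp4 log2 ratio of 0.19 was under that of Ttr, and the difference between them was not tested.

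The lists around Nampt, apelin, vaspin and adipsin, of which that of vaspin is a protein family and not a pathway, had 2 called genes. Both were lower and both had dim probes. Of all probes 3.99% were called lower. Of 8 tested genes of NAD synthesis and use, Qprt, which makes NAD from quinolinate, was lower (log2 -0.80, adjusted p = 0.00444), and of 2 tested serpins of clade A, Serpina10 was lower (log2 -1.50, adjusted p = 0.0043). Of the 6 fits that lack an array, 1 called Qprt and 2 called Serpina10. In the apelin system 0 of 3 tested genes were called, with log2 ratios from 0.39 for the receptor Aplnr to 0.84 for Ace (adjusted p = 0.16 and 0.0127). Of 6 tested genes of the alternative complement pathway 0 were called, from -0.45 for the complement inhibitor Cd55 to 0.37 for the receptor C3ar1.

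Of 15 tested transcription factors that act on adipokine genes 0 were called, with log2 ratios from -0.26 for Ppara to 0.36 for Pparg, the regulator of fat cell differentiation (adjusted p = 0.164 and 0.0745). The factors of the palindrome in the Lep promoter are named because of that sequence. Cebpa gave 100343, 91980 and 93521 in high gainers and 91696, 103255 and 94974 in low gainers (log2 -0.020), and Cebpb had a log2 ratio of -0.031 and Cebpd of 0.25 (adjusted p = 0.915, 0.884 and 0.161). A dimmer probe of Cebpb had a log2 ratio of 0.18 (adjusted p = 0.287). The arrays of Cebpa overlapped between the pools. Protein and binding of these factors were not measured, and their part in the Lep ratio was not tested.

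**Figure D4:**
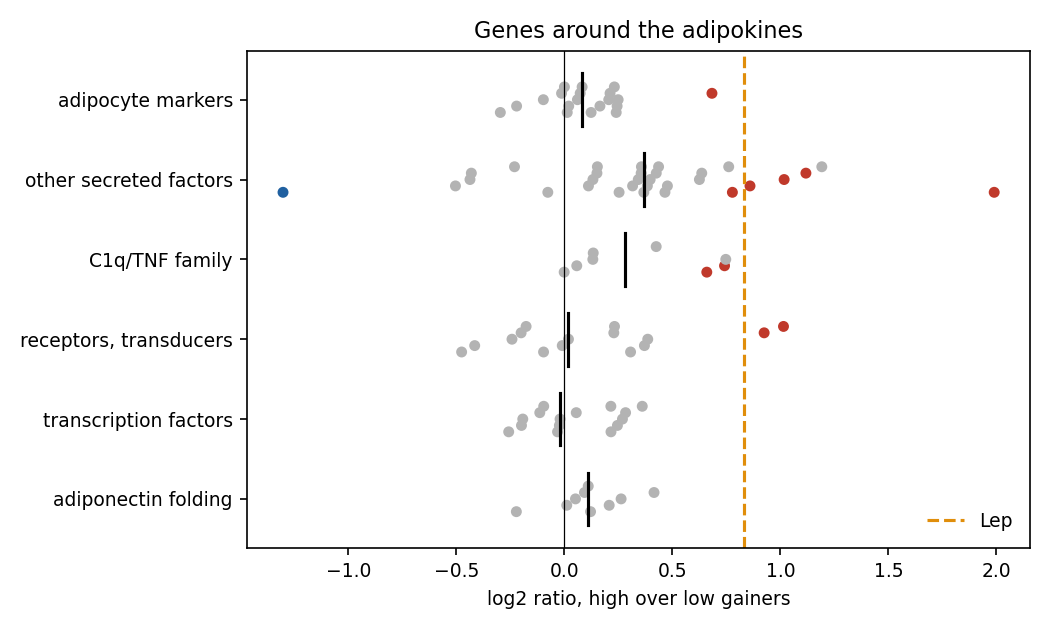
Log2 ratio of high over low gainers for the tested genes of 6 lists; each point is 1 gene, red marks a gene called higher, blue a gene called lower and gray a gene not called, the short black line is the list's median and the dashed line is Lep at 0.83. Receptors, transcription factors and genes of adiponectin folding center near 0, at medians of 0.019, -0.020 and 0.11, and other secreted factors at 0.37.

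The tissue label was checked on marker genes of fat and of other cells. Of 24 adipocyte markers 19 had a probe with a value on every array, and 1 was called higher (5.26%, beside 2.50% of all probes). This was Plin4, a coat protein of lipid droplets, at a log2 ratio of 0.68 (adjusted p = 0.00305), a call that 2 of the 6 fits lacking an array kept. The median of the list was 0.082, and its summed signal ran from 18025885 to 18984791 in high gainers and from 17557524 to 18449393 in low gainers, ranges that overlap. With each array centered on these markers, which lowered every log2 ratio by 0.11, Lep was at 0.72 and still called (adjusted p = 0.00822). The same centering ended the calls of Fgf1, C1qtnf1, C1qtnf9, Vldlr, Ttr and Plin4, and of Csnk2a1, Thbs2, Efemp1 and Lims2.

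Many markers of other cells were lower in the pool in which Lep was higher. Of the tested B lymphocyte markers 7 of 7 were called lower, of T lymphocyte markers 6 of 8, of skeletal muscle 10 of 10, of glandular epithelium 3 of 6, of macrophages 2 of 8 and of brown and beige adipocytes 1 of 7, beside 3.99% of all probes. The arrays of high gainers were lower without overlap for 8 of the 8 T lymphocyte, 4 of the 6 epithelial, 3 of the 8 macrophage and 5 of the 7 brown and beige markers. They were so for 2585 of all 15821 tested probes. The summed signal of the B lymphocyte markers was 110675 to 120640 in high gainers and 362719 to 382944 in low gainers, that of T lymphocyte markers 117700 to 141051 against 342243 to 397985, and that of skeletal muscle 1107281 to 1177872 against 2069606 to 2275634. For glandular epithelium it was 89156 to 129168 against 137426 to 164491, for macrophages 1361774 to 1470539 against 1464476 to 1646900 and for brown and beige adipocytes 850870 to 896758 against 1081866 to 1108272. The macrophage ranges overlap. Most of these sums came from 1 bright gene each, Cldn4, Lyz2 and Cox8b, none of them called. The macrophage marker Cd163 and the brown and beige marker Prdm16 were higher without overlap, both at log2 0.44 and not called. Of 8 endothelial markers 0 were called, and of 8 stromal markers 1 was called higher and 1 lower, beside 2.50% and 3.99% of all probes. The arrays of high gainers were higher without overlap for 5 of the 8 endothelial and 5 of the 8 stromal markers, beside 3212 of the 15821 probes. Among stromal markers 1 was lower without overlap. Among defining markers with blanks, the B cell kinase gene Blk and the epithelial genes Krt19 and Cldn7 had no value on any array of high gainers. Each had values on only 2 arrays of low gainers, which for Cldn7 were as low as 1023 and 1395. Epcam was at 1001 on 1 array of high gainers and at 14220, 12152 and 11672 on those of low gainers. Krt5, also epithelial, was at 856 on 1 array of high gainers and at 9689, 4689 and 6281 on those of low gainers. The T cell gene Cd3e was at 2326 and 1129 on 2 arrays of high gainers. On the arrays of low gainers Cd3e was at 4112, 6086 and 4675. The stromal gene Dlk1 went the other way, at 2083 and 2009 on 2 arrays of high gainers and blank on those of low gainers. Of the brown fat genes with blanks, Elovl3 was at 1749 and 1781 on 2 arrays of high gainers. On the arrays of low gainers Elovl3 was at 2833, 3042 and 2557. Cidea and Kcnk3 had values in both pools. The called gene among the brown and beige markers was Ucp1, lower in high gainers at a log2 ratio of -2.77 (adjusted p = 0.000174). The part of the cell makeup in the adipokine ratios was not tested.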

How the data were processed

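The authors hybridized labeled cRNA from 2 RNA pools to one-color chemiluminescent mouse genome arrays, normalized the signals by the quantile method and deposited intensity values on a linear scale, with a blank where an array has no value. Whether a blank reflects their quality filter was not stated in what was read here, and a blank is not a level of 0. Values of the 15821 probes (of 33012) measured on every array were put on the log2 scale without further normalization and compared with limma 3.58.1 (lmFit and eBayes, R 4.3.3), with no covariate. Probes were named through the platform annotation (14411 with 1 symbol, 247 with several, 18354 with none), and 14402 symbols were updated by gene identifier with RefSeq genes of GRCm38.p6. Vaspin was matched by its current symbol, Serpina12. Where a gene had several probes the brightest was taken, and Vegfa, Cxcl12, Cebpb, Atp2a1 and Csnk2a1 have probes that disagree in sign or call. Each gene list was described by its counts and median. The text names every adipokine, every called gene of a list around the adipokines (the extremes where 0 were called), and 5 genes most like Lep. The rule also selects genes of the cell type markers, most of which are given here only by counts and summed signal. Other genes named, among them Lepr, Socs3, Adipor1, Adipor2, Stra6, the C/EBP genes and the markers with blanks, were chosen after their values were seen. The adipokines and lists were chosen with earlier results of these data known. The fits were tested on simulated data. The number of arrays limits the precision. Arrays of equal number share only the number and were not treated as pairs. The alternatives were a second normalization, centering on all probes or on adipocyte markers, filters on dim probes and blanks, an offset (1484), arithmetic means, an intensity trend, the methods' ANOVA (for 2 groups an equal-variance test on the log2 values), other fold thresholds, a replicate block, probe means and leaving out each array.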

Additional observations from a re-analysis of the deposited data

How the results depend on the processing

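Lep kept its direction in all 20 alternatives, at log2 ratios from 0.72 to 0.89. The probe filters, intensity trend, ANOVA and fold thresholds among them cannot change this ratio and bear only on the call. It lost its call after adjustment of the methods' ANOVA (0.83, adjusted p = 0.0275) and at a 2-fold threshold (0.83), where 0 adipokines were called, and in 4 of 6 fits with 1 array left out, over which the log2 ratio ran from 0.74 to 0.89 and the number of called adipokines from 0 to 1. Lep against the other adipokines gave 1 call at 2-fold, 2 with the methods' ANOVA, adjusted or not, where Nampt was lost, and 1 to 3 with 1 array left out, the 1 without low gainers replicate 3. With the array number as a replicate block Lep was at 0.83 (adjusted p = 0.00773) and called, and 173 probes were higher. Arrays of the same number deviated together at r = 0.038, -0.11 and 0.27, and high gainers replicate 2 correlated best with low gainers replicate 1 (0.36).

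Probes called higher, 396, were 174 with centering on adipocyte markers, which shifts every log2 ratio by -0.11, 46 with the adjusted ANOVA, 98 at 2-fold and 105 to 319 with 1 array left out. Probes called lower, 632, were 728 with that centering, and 111, 402 and 368 to 493 under the last 3 of these settings. Some of these settings hold fewer arrays or a stricter threshold by construction, and otherwise the cause was not tested. Nampt turned sign with centering on adipocyte markers (-0.029) and in the fits that lack high gainers replicate 2 (-0.010) or low gainers replicate 2 (-0.040), with a range of -0.040 to 0.18 over the fits that lack an array, and was called in none. Retn (0.22 to 0.37), Rbp4 (0.082 to 0.22) and Angptl4 (-0.47 to -0.31) kept their direction and were not called in any of the 20 alternatives. As for Lep, some of these settings cannot change a ratio.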
